A study of Mus musculus with 20 samples.

Results

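The CCR4-NOT complex shortens the poly(A) tails of mRNAs in the cytoplasm of animal cells, and its subunits are described here as mRNAs in mouse oocytes and early embryos. The 10 genes Cnot6l, Cnot6, Cnot7, Cnot8, Cnot1, Cnot2, Cnot3, Rqcd1 (now called Cnot9), Cnot10 and Cnot11 were taken by their symbols, 10 of the 23309 symbols in each deposited table. All 10 had a single row in every library, and all 10 passed the filter on low values. The values are FPKM, that is, sequenced fragments per kilobase of transcript, scaled by the fragments mapped in the library, so levels can be compared between genes per length.

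In the Btg4 experiment, 16 libraries came from ICR mice of 2 genotypes, Btg4-/- and wild type, at 4 stages with 2 libraries each. The stages were the germinal vesicle (GV) oocyte, arrested in meiotic prophase, the mature MII oocyte, arrested at the second meiotic metaphase, the zygote and the embryo of 2 cells. In the Erk experiment, 4 libraries came from GV and MII oocytes labelled Erk-/- or wild type, with 1 library per group and therefore no replicate check. Per the labels, 60 oocytes or embryos were pooled per sample, from females 21 to 23 days old that had received PMSG and hCG, the hormones that make follicles grow and ovulate, and that were mated where embryos were collected. The labelled collection protocol names Btg4-/- and wild-type females only, also for the Erk samples. For zygotes and 2-cell embryos the genotype named there is that of the mothers. The embryos' own genotype was not checked, and labelled Btg4-/- embryos below are embryos of that group. The alleles, any promoter or Cre used, and the Erk gene targeted were not given in the sources used here. Nothing in the labels ties the 2 libraries of a group to different females, so the p-values cover only the variation among these libraries, and that variation may be technical.

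CNOT1 is the scaffold on which the complex assembles. Its nucleases come as pairs of paralogues, CNOT6 and CNOT6L of the CCR4 type and CNOT7 and CNOT8 of the CAF1 type, and a complex is thought to hold a nuclease of each type. CNOT2 and CNOT3 form a module at the carboxy-terminal end of CNOT1, CNOT9 is a docking site for proteins that bring the complex to an mRNA, and CNOT10 and CNOT11 form a module at the amino-terminal end. Mouse oocytes stop transcribing before they mature, and the removal of their stored mRNAs begins with deadenylation. BTG4 is an adaptor that binds the CAF1-type subunits in mouse oocytes.

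Some properties of the libraries bear on every result below. In the Btg4 experiment 8385 to 10058 symbols reached 1 FPKM per library (7265 to 9253 in the Erk experiment), and the 2 libraries of a group correlated across genes with r of 0.947 to 0.982. Relative to the first wild-type GV library, depth was 0.699 to 1.28 across the Btg4 libraries and 1.52 to 2.09 across the Erk libraries. The FPKM summed over all symbols was not equal between libraries. At the 2-cell stage it was 453813 and 441998 in labelled Btg4-/-, against 299983 and 302000 in wild type. At MII it was 477225 and 472082, against 357517 and 379914, and in zygotes 424727 and 408430, against 354205 and 343949. At GV 491035 and 438664 overlapped 470460 and 454592. Btg4 itself had 1980 and 1881 FPKM in GV libraries labelled Btg4-/-, against 1450 and 1673 in wild type, and 3514 and 3632 FPKM in 2-cell libraries labelled Btg4-/-, against 1147 and 964 in wild type. At MII it had 172 and 191 FPKM, against 415 and 406, and in zygotes 139 and 164 FPKM, against 610 and 559. One FPKM for a whole gene does not reveal whether a stretch of it is missing, so these levels do not check the label, and groups are named below as labelled. All 7 oocyte markers examined (Zp1, Zp2, Zp3, Gdf9, Bmp15, Ddx4 and Nlrp5) were detected in every group. Their summed FPKM at GV was 955 to 1091 in labelled Btg4-/-, against 1624 to 1717 in wild type, and 15229 in wild type of the Erk experiment. At MII 3707 to 3928 overlapped 3918 to 4047. In zygotes it was 5345 to 5746, against 1989 to 2200, and at the 2-cell stage 2452 to 2593, against 785 to 996. The relation of these oocyte marker sums to the subunits was not tested. The summed FPKM of 11 granulosa and cumulus cell markers was 84.3 to 92.2 in labelled Btg4-/- GV libraries and 72.2 to 80.6 in wild-type GV libraries, against 0.853 to 10.1 in the other groups of that experiment, with 2 of the 11 at 0 in both GV groups. The summed FPKM of 5 blood cell markers was 0 to 1.44 in labelled Btg4-/- MII libraries, against 49.6 to 84.1 in wild-type MII libraries, with 1 of the 5 at 0 in both. The part of these cells in the GV and MII results was not tested, and in bulk samples fewer cells of a type and less RNA per cell cannot be told apart.

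The coding sequences of Cnot6l and Cnot6 are identical at 73.1% of aligned positions, and those of Cnot7 and Cnot8 at 69.2% (GENCODE M21 transcripts, GRCm38 build). The annotated 3′ UTR has 6847 bases in Cnot6l, 480 in Cnot6, 1447 in Cnot7, 1006 in Cnot8 and 283 in Cnot3. The last 150 bases of each 3′ UTR were searched, on the transcript strand only, for a cytoplasmic polyadenylation element, written as TTTTAT or TTTTAAT, and for the polyadenylation hexamer, AATAAA or ATTAAA. In maturing oocytes such elements near the hexamer are bound by CPEB and mark mRNAs whose tails are extended. Cnot1, Cnot3 and Cnot8 held the element, 3 of 10 subunits, and it occurred in 23.5% of the 18229 genes with a 3′ UTR at least that long. The hexamer was found in 7 of 10, against 80.5% of genes. Of the subunits holding the element, Cnot3 and Cnot8 also held a hexamer in the window and Cnot1 did not. The 3 elements are shown, with the hexamers of Cnot6l and Cnot7, the nucleases with the largest differences between genotypes at MII. Capitals mark the motif, and the first base of the motif lay 64, 19, 38, 25 and 28 bases from the annotated end in Cnot1, Cnot3, Cnot8, Cnot6l and Cnot7.
Cnot1 element, chromosome 8, minus strand: aagatgtattgaTTTTATatatgtgagtac
Cnot3 element, chromosome 7, plus strand: atgaataaatagTTTTATatgacggctggc
Cnot8 element, chromosome 11, plus strand: attatttatgtTTTTAATtttgtaaaataa
Cnot6l hexamer, chromosome 5, minus strand: ttccctgtaggcAATAAAtggccattttgc
Cnot7 hexamer, chromosome 8, minus strand: aaagcttttgtaAATAAAggcttcaaaaat
A match describes these letters in the annotated window only, and the ends used in oocytes were not measured.

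Among the CCR4-type nucleases, Cnot6l was the more abundant in every library, and from GV to MII it fell in libraries labelled Btg4-/- and rose in wild type. Cnot6l lies on chromosome 5, 96504757 to 96591009 (mm9, as for all loci below). At GV it had 74.1 and 65.1 FPKM in labelled Btg4-/- oocytes, against 68.5 and 80.1 in wild type, and the ranges overlapped. At MII it had 25.4 and 31.1 FPKM in labelled Btg4-/- oocytes, against 249 and 266 in wild type. All 4 MII libraries were thus far apart by genotype, with a log2 difference of -3.15 (95% interval -3.50 to -2.80, adjusted p = 8.56e-09). In zygotes the values were 52.5 and 63.0 FPKM in labelled Btg4-/-, against 271 and 308 in wild type, a difference of -2.31 (-2.66 to -1.96, adjusted p = 1.9e-07). At the 2-cell stage 123 and 144 FPKM in labelled Btg4-/- embryos overlapped 163 and 129 in wild type (-0.13, -0.48 to 0.22, adjusted p = 0.554), while quantile normalization gave a called difference of -0.78 (adjusted p = 0.00294). As a share of the summed FPKM of all symbols, given above, Cnot6l was lower in both labelled 2-cell libraries. On the log2(FPKM + 1) scale Cnot6l fell between GV and MII in labelled Btg4-/- oocytes (-1.27, adjusted p = 2.76e-05) and rose in wild type (1.78, adjusted p = 1.1e-06). The difference between these changes was -3.06 (-3.56 to -2.56, adjusted p = 6.11e-07). From zygote to 2-cell it rose by 1.19 in labelled Btg4-/- embryos (adjusted p = 6.02e-05) and fell in wild type (-0.99, adjusted p = 0.000182), a difference of 2.18 (1.69 to 2.68, adjusted p = 7.74e-06).

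Cnot6, on chromosome 11, 49488212 to 49526212, was a minor transcript next to Cnot6l, with 6.25 to 31.5 FPKM over the 16 libraries. It differed between genotypes in zygotes, where it had 8.42 and 8.31 FPKM in labelled Btg4-/-, against 14.6 and 19.1 in wild type (-0.92, -1.37 to -0.47, adjusted p = 0.00276). At GV it had 8.37 and 11.6 FPKM in labelled Btg4-/-, against 6.25 and 6.89 in wild type, which did not pass the threshold (0.52, 0.07 to 0.97, adjusted p = 0.165). At MII 9.64 and 7.03 FPKM in labelled Btg4-/- overlapped 10.04 and 8.47 in wild type (-0.15, -0.60 to 0.31). All 2-cell libraries were high, 27.1 and 24.2 FPKM in labelled Btg4-/-, against 31.5 and 29.8 in wild type (-0.25, -0.70 to 0.20). Cnot6 rose from zygote to 2-cell by 1.51 in labelled Btg4-/- (adjusted p = 7.25e-05) and by 0.83 in wild type (adjusted p = 0.00408), and the difference between the changes did not pass the threshold (0.67, 0.03 to 1.31, adjusted p = 0.079). Cnot6l made up 72.5 and 81.5% of the pair's FPKM in labelled Btg4-/- MII libraries, against 96.1 and 96.9% in wild type, and 86.2 and 88.4% in labelled Btg4-/- zygotes, against 94.9 and 94.2% in wild type. At GV the share was 89.8 and 84.9% in labelled Btg4-/-, against 91.6 and 92.1%, and at the 2-cell stage 81.9 and 85.6%, against 83.8 and 81.3%, where the groups overlapped.

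The CAF1-type nucleases were the most abundant subunits at GV and the ones that dropped furthest by MII in the Btg4 experiment. Cnot7, on chromosome 8, 41577892 to 41601201, had 667 and 708 FPKM at GV in labelled Btg4-/- oocytes, against 495 and 575 in wild type. The libraries did not overlap, but the difference did not pass the threshold (0.37, 0.10 to 0.63, adjusted p = 0.0929), and it did with median-of-ratios scaling (0.61, adjusted p = 0.00859). At MII Cnot7 had 36.7 and 43.7 FPKM in labelled Btg4-/-, against 70.7 and 81.6 in wild type, lower in both labelled libraries (-0.91, -1.17 to -0.64, adjusted p = 3.95e-05). In zygotes it had 40.7 and 38.6 FPKM, against 107 and 114 (-1.46, -1.72 to -1.19, adjusted p = 8.88e-07). In 2-cell embryos it had 250 and 253 FPKM in labelled Btg4-/-, against 199 and 184 in wild type, higher by 0.39 (0.13 to 0.66, adjusted p = 0.0174), while quantile normalization turned the direction round (-0.44, adjusted p = 0.0168). The FPKM of all symbols summed to 453813 and 441998 in these labelled libraries, against 299983 and 302000 in wild type. As a share of that total, Cnot7 was lower in both labelled libraries. That 2-cell call was also lost without labelled Btg4-/- library 1 (adjusted p = 0.0526) or 2 (0.0634) or wild-type library 2 (0.0727). From GV to MII Cnot7 fell by 4.07 in labelled Btg4-/- oocytes (adjusted p = 9.41e-11) and by 2.79 in wild type (adjusted p = 1.85e-09), a difference of -1.27 (-1.65 to -0.90, adjusted p = 7.4e-05). From zygote to 2-cell it rose by 2.64 in labelled Btg4-/- embryos (adjusted p = 5.54e-09) and by 0.79 in wild type (adjusted p = 0.000118), a difference of 1.85 (1.47 to 2.22, adjusted p = 2.98e-06). The Cnot7 locus shares 4065 bases with Vps37a, which reached at most 5.42 FPKM in any library of the Btg4 experiment. Whether counting used strand is not given in the sources used here, so reads in shared bases cannot be assigned with certainty.

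Cnot8, on chromosome 11, 57917655 to 57932096, had 109 and 89.3 FPKM in labelled Btg4-/- GV oocytes, against 97.4 and 95.02 in wild type, with overlapping ranges (0.04, -0.49 to 0.56). At MII it had 13.8 and 12.4 FPKM in labelled Btg4-/-, against 8.04 and 7.44 in wild type, a difference of 0.69 (0.16 to 1.21, adjusted p = 0.0305). That call was lost whenever any of the 4 MII libraries was left out, with adjusted p of 0.134 and 0.0677 without labelled Btg4-/- libraries 1 and 2 and of 0.0695 and 0.121 without wild-type libraries 1 and 2. It was also lost with no filter on low values (0.0515), median-of-ratios scaling (0.0577) and quantile normalization (0.154). In zygotes 12.9 and 7.54 FPKM in labelled Btg4-/- overlapped 6.12 and 8.47 in wild type (0.41, -0.12 to 0.94), and the difference passed the threshold without labelled Btg4-/- zygote library 2 (0.76, adjusted p = 0.0332). In 2-cell embryos Cnot8 had 46.3 and 41.2 FPKM in labelled Btg4-/-, against 90.7 and 134 in wild type, and was lower in both labelled libraries (-1.32, -1.84 to -0.79, adjusted p = 0.000626). Cnot8 fell from GV to MII by 2.82 in labelled Btg4-/- oocytes (adjusted p = 8.42e-07) and by 3.48 in wild type (adjusted p = 1.05e-07). It rose from zygote to 2-cell by 2.04 in labelled Btg4-/- embryos (adjusted p = 2.02e-05) and by 3.76 in wild type (adjusted p = 5.06e-08), a difference of -1.72 (-2.47 to -0.98, adjusted p = 0.00119). Cnot7 made up 84.4 and 86.0% of the Cnot7 and Cnot8 FPKM in labelled Btg4-/- 2-cell embryos, against 68.7 and 57.9% in wild type. At MII its share was 72.7 and 77.9% in labelled Btg4-/-, against 89.8 and 91.6% in wild type, so the groups stood apart in the opposite order.

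**Figure D1:**
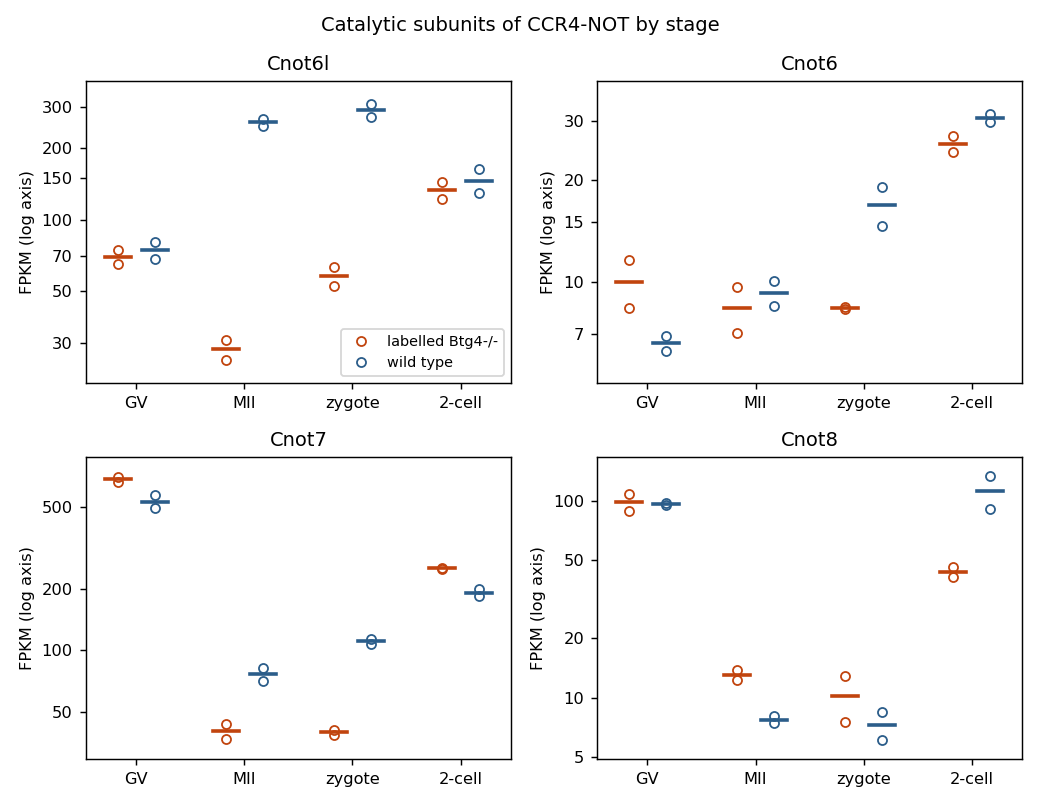
FPKM (log axis) of the nuclease subunits in each library of the Btg4 experiment by stage, with labelled Btg4-/- in orange left of wild type in blue, circles for libraries and bars for the mean of 2. Cnot6l at MII stands at 25.4 and 31.1 FPKM in labelled Btg4-/-, against 249 and 266 for the wild type, and Cnot7 and Cnot8 are low at MII and in zygotes in both genotypes.

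In the Btg4 experiment the scaffold Cnot1, on chromosome 8, 98243351 to 98331362, was the lowest subunit per length at GV and showed no called difference between genotypes at any stage. It had 1.73 and 1.82 FPKM in labelled Btg4-/- GV oocytes, against 2.16 and 2.04 in wild type, and 3.77 and 6.61 FPKM at MII, against 4.89 and 4.42. In zygotes it had 13.2 and 14.2 FPKM in labelled Btg4-/-, against 9.37 and 10.6 in wild type, and at the 2-cell stage 6.74 and 6.75, against 12.1 and 7.23. The libraries were apart at GV, in zygotes and at the 2-cell stage, yet the differences of -0.16 (-0.73 to 0.41), 0.42 (-0.15 to 0.99) and -0.42 (-0.996 to 0.15) did not pass the threshold, nor did 0.09 (-0.48 to 0.66) at MII. Without wild-type 2-cell library 2 the 2-cell difference passed it (-0.76, adjusted p = 0.0387). Cnot1 rose from MII to zygote in labelled Btg4-/- (1.28, adjusted p = 0.00635) and in wild type (0.96, adjusted p = 0.0168). The first call was lost without labelled Btg4-/- MII library 1 (adjusted p = 0.0666) or zygote library 2 (0.0548). The second was lost without wild-type MII library 2 (0.0802) or zygote library 1 (0.0505) or 2 (0.101), with median-of-ratios scaling (0.0708) and with quantile normalization (0.143). From zygote to 2-cell it fell by 0.92 in labelled Btg4-/- (adjusted p = 0.0119, but 0.065 without zygote library 2) and gave -0.08 in wild type (-0.65 to 0.50), and the difference between the changes did not pass the threshold (-0.84, -1.65 to -0.04, adjusted p = 0.0797), except without wild-type 2-cell library 2 (-1.18, 0.0167). Cnot1 overlaps 633 bases of 4930513N10Rik, which had at most 3.49 FPKM in the Btg4 experiment.

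Cnot3 and Cnot2, partners in the module that binds the carboxy-terminal end of CNOT1, were both lower in MII libraries labelled Btg4-/-. Cnot3 lies on chromosome 7, 3596871 to 3612711, and its locus shares 1089 bases with Leng1 and Mir3572. At GV it had 21.5 and 15.1 FPKM in labelled Btg4-/-, against 40.8 and 35.5 in wild type (-1.04, -1.53 to -0.54, adjusted p = 0.0163). The GV call was lost with quantile normalization (adjusted p = 0.102) and median-of-ratios scaling (0.0566), and without labelled Btg4-/- GV library 2 (0.154) or wild-type GV library 1 (0.13) or 2 (0.0653). At MII Cnot3 had 17.2 and 14.9 FPKM in labelled Btg4-/-, against 71.4 and 65.7 in wild type (-2.03, -2.53 to -1.54, adjusted p = 7.98e-06). In zygotes it had 38.4 and 33.2 FPKM, against 141 and 132 (-1.90, -2.40 to -1.41, adjusted p = 1.95e-05). Both stages thus had wide gaps between the genotypes. In 2-cell embryos 34.1 and 34.1 FPKM in labelled Btg4-/- lay within the wild-type pair of 34.5 and 19.7 (0.37, -0.12 to 0.87), and the difference passed the threshold without wild-type library 1 (0.76, adjusted p = 0.0106). Wild-type Cnot3 fell by 2.34 from zygote to 2-cell (adjusted p = 1.98e-06), against -0.07 (-0.56 to 0.43) in labelled Btg4-/-, a difference of 2.27 (1.57 to 2.97, adjusted p = 9.05e-05). Leng1 had at most 10.9 FPKM in the Btg4 experiment.

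Cnot2, on chromosome 10, 115922217 to 116018567, had 9.83 and 9.36 FPKM in labelled Btg4-/- MII oocytes, against 16.6 and 17.4 in wild type (-0.76, -1.20 to -0.33, adjusted p = 0.00615). It was also below wild type in both labelled GV libraries, at 6.18 and 6.68 FPKM against 9.68 and 10.03, without passing the threshold (-0.55, -0.98 to -0.11, adjusted p = 0.126). In zygotes 14.8 and 22.6 FPKM in labelled Btg4-/- overlapped 22.2 and 29.4 in wild type (-0.46, -0.89 to -0.02, adjusted p = 0.0788). That difference passed the threshold with quantile normalization (-0.61, adjusted p = 0.0308), without labelled Btg4-/- zygote library 2 (-0.74, 0.0148) and without wild-type zygote library 1 (-0.65, 0.0455). In 2-cell embryos it had 27.1 and 31.6 FPKM in labelled Btg4-/-, against 27.8 and 27.1 in wild type (0.09, -0.35 to 0.52).

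Rqcd1, the docking subunit, on chromosome 1, 74552634 to 74577416, was higher in labelled Btg4-/- oocytes at MII and close between genotypes at the other stages. At MII it had 18.4 and 22.2 FPKM in labelled Btg4-/-, against 8.47 and 7.91 in wild type (1.21, 0.86 to 1.55, adjusted p = 3.05e-05). At GV it had 17.2 and 17.9 FPKM, against 18.1 and 16.2 (0.03, -0.31 to 0.38), and in zygotes 18.6 and 17.9 FPKM, against 16.6 and 16.8 (0.12, -0.22 to 0.46). In 2-cell embryos it had 22.7 and 26.9 FPKM in labelled Btg4-/-, against 25.1 and 28.7 in wild type (-0.12, -0.46 to 0.22). From GV to MII its change was 0.19 (-0.15 to 0.53) in labelled Btg4-/-, while it fell by 0.98 in wild type (adjusted p = 0.000172), a difference of 1.17 (0.69 to 1.66, adjusted p = 0.000988). From MII to zygote its change was -0.14 (-0.48 to 0.20) in labelled Btg4-/-, while it rose by 0.95 in wild type (adjusted p = 0.000929), a difference of -1.09 (-1.57 to -0.60, adjusted p = 0.00766). The whole Rqcd1 span of 24783 bases lies within the span of Usp37. Usp37 had 1.18 to 1.84 FPKM in labelled Btg4-/- MII libraries, against 6.72 to 8.44 in wild type, the reverse order of Rqcd1, and how reads were divided between them was not tested.

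Of the pair at the amino-terminal end of CNOT1, Cnot11 was higher in labelled Btg4-/- zygotes and 2-cell embryos. Cnot11 lies on chromosome 1, 39592647 to 39603722. In zygotes it had 120 and 109 FPKM in labelled Btg4-/-, against 66.9 and 63.9 in wild type (0.80, 0.43 to 1.16, adjusted p = 0.00161). At the 2-cell stage it had 55.5 and 62.7 FPKM in labelled Btg4-/-, against 7.79 and 9.995 in wild type (2.61, 2.25 to 2.97, adjusted p = 7.41e-08). Cnot11 thus had the largest 2-cell difference of the 10 subunits. At GV 62.9 and 51.8 FPKM in labelled Btg4-/- lay below 76.9 and 65.5 in wild type without passing the threshold (-0.31, -0.67 to 0.05, adjusted p = 0.32), and at MII 95.3 and 74.7 FPKM overlapped 83.7 and 93.7 (-0.07, -0.43 to 0.29). Quantile normalization alone gave a called MII difference, of -0.43 (adjusted p = 0.0301). Cnot11 fell from zygote to 2-cell by 0.94 in labelled Btg4-/- (adjusted p = 0.000514) and by 2.76 in wild type (adjusted p = 2.96e-08), a difference of 1.81 (1.30 to 2.33, adjusted p = 4.58e-05). In the same 2-cell libraries the summed FPKM of 8 markers of the 2-cell embryo, such as Zscan4c and Zfp352, was 5.10 to 11.6 in labelled Btg4-/-, against 146 to 224 in wild type, and its relation to Cnot11 and Cnot8 was not tested.

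Cnot10, on chromosome 9, 114494992 to 114549318, had 2.15 to 12.7 FPKM over the libraries of the Btg4 experiment, with its highest group mean in wild-type GV oocytes. In zygotes it had 8.98 and 5.97 FPKM in labelled Btg4-/-, against 2.75 and 3.69 in wild type (0.99, 0.32 to 1.67, adjusted p = 0.0186), a call that was lost without labelled Btg4-/- zygote library 1 (adjusted p = 0.152) or wild-type zygote library 1 (0.117). At GV it had 9.64 and 7.86 FPKM in labelled Btg4-/-, against 12.7 and 11.9 in wild type (-0.46, -1.13 to 0.22). At MII 5.68 and 5.81 FPKM in labelled Btg4-/- stood above 2.15 and 4.46 in wild type without passing the threshold (0.70, 0.02 to 1.38, adjusted p = 0.0775), which it did pass without wild-type MII library 2 (1.10, adjusted p = 0.0205). Among 2-cell embryos the genotypes overlapped, at 2.74 and 3.85 against 4.29 and 2.42 FPKM. Wild-type Cnot10 fell by 1.68 from GV to MII (adjusted p = 0.000522), while the change in labelled Btg4-/- was -0.53 (-1.20 to 0.15), and the difference between them did not pass the threshold (1.15, 0.20 to 2.11, adjusted p = 0.0509), but did without wild-type MII library 2 (1.55, 0.0159) or either wild-type 2-cell library (0.0466 and 0.0455), with a filter at 5 FPKM (0.0393) and with these groups fitted alone (0.0342).

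**Figure D2:**
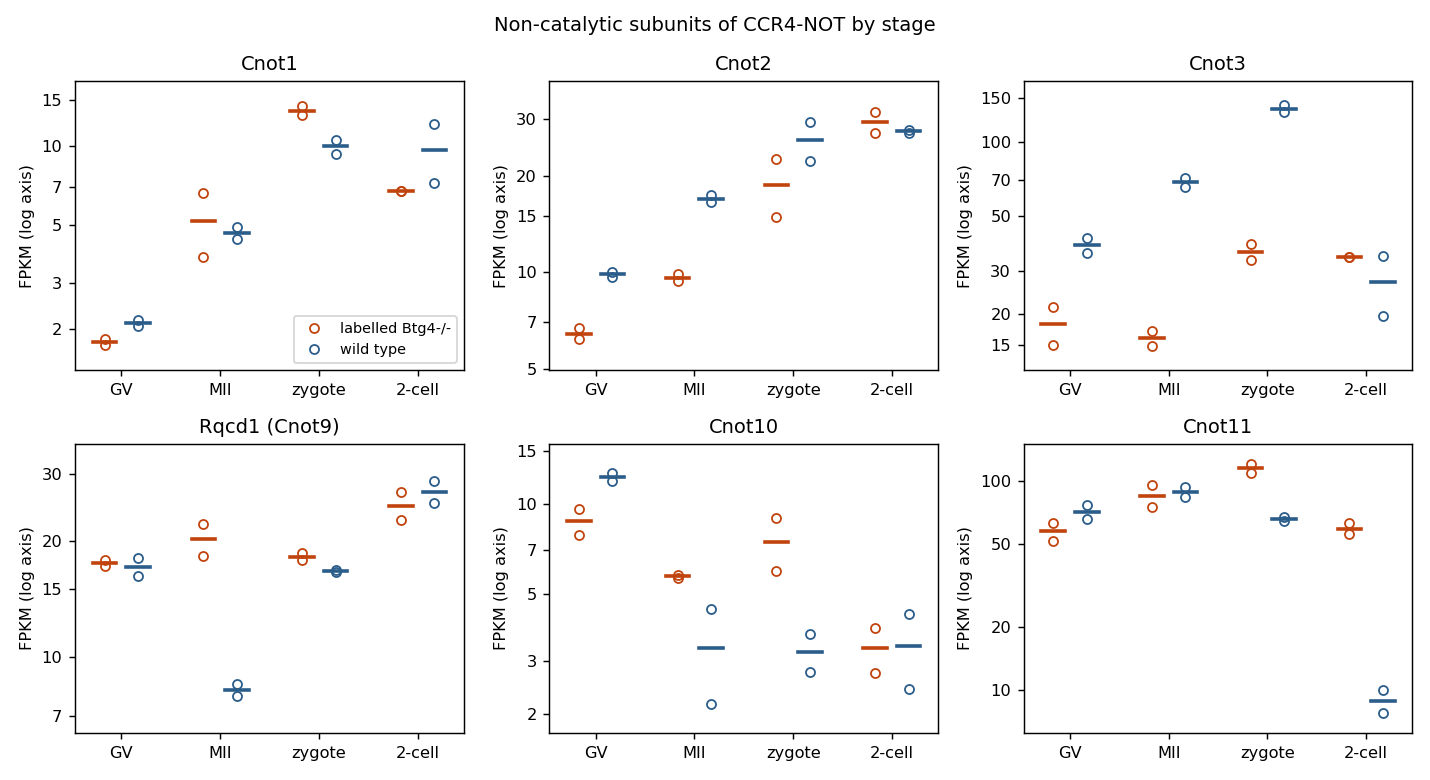
FPKM (log axis) of the scaffold and the other non-catalytic subunits in each library of the Btg4 experiment by stage, with labelled Btg4-/- in orange left of wild type in blue, circles for libraries and bars for the mean of 2. Cnot3 stands apart by genotype at MII and in zygotes, Rqcd1 at MII, and Cnot11 at the 2-cell stage, with 55.5 and 62.7 FPKM in labelled Btg4-/- and 7.79 and 9.995 in wild type.

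Set against all 12311 genes tested, the share of subunits called between genotypes was near the share of all genes, and somewhat above it, at GV, MII and in zygotes. At the 2-cell stage it was below that share. The calls were divided in direction at every stage but GV. At GV 1 of 10 was called, and it was lower, where 7.90% of all genes were called (1.45% higher and 6.46% lower). At MII 6 of 10 were called, against 52.4% of all genes, 4 lower (Cnot6l, Cnot3, Cnot7 and Cnot2, against 23.3% of genes) and 2 higher (Rqcd1 and Cnot8, against 29.1%). In zygotes 6 of 10 were called, against 47.7%, 4 lower (Cnot6l, Cnot3, Cnot7 and Cnot6, against 23.3%) and 2 higher (Cnot10 and Cnot11, against 24.4%). At the 2-cell stage 3 of 10 were called, against 49.0%, 2 higher (Cnot11 and Cnot7, the second reversed under quantile normalization, against 22.6%) and 1 lower (Cnot8, against 26.4%). FPKM is scaled by the fragments mapped in a library, so these are changes relative to other mRNAs. The summed FPKM of all symbols was higher in labelled Btg4-/- libraries than in wild type at MII, in zygotes and at the 2-cell stage. At these stages a difference in FPKM is therefore not a difference in share of that sum. The libraries were made from purified mRNA, so a change in amount and, where mRNA was purified by its tail, a change in tail length cannot be told apart.

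**Figure D3:**
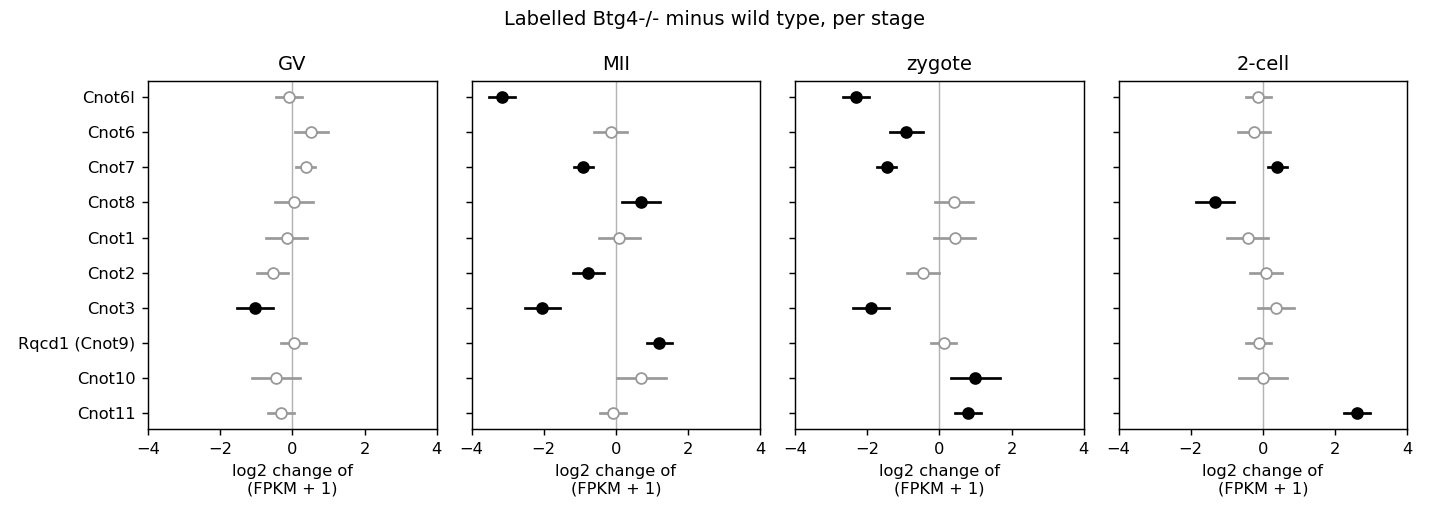
Difference of labelled Btg4-/- minus wild type on the log2(FPKM + 1) scale for each subunit at each stage, with 95% intervals from limma over 16 libraries and filled black points where the adjusted p is under 0.05. Cnot6l, Cnot3 and Cnot7 lie left of 0 at MII and in zygotes, Cnot11 lies at 2.61 at the 2-cell stage, and the 2-cell value of Cnot7 changes sign under quantile normalization.

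By step, most subunits changed in wild type from GV to MII and from zygote to 2-cell. From GV to MII, 5 of 10 were called in labelled Btg4-/-, where 45.4% of all genes were (2 higher, Cnot1 and Cnot11, against 27.3%, and 3 lower, Cnot6l, Cnot7 and Cnot8, against 18.1%). In wild type 8 of 10 were called in that step, against 53.7% of genes (4 higher, Cnot1, Cnot2, Cnot3 and Cnot6l, and 4 lower, Cnot7, Cnot8, Rqcd1 and Cnot10, against 25.2% and 28.5%). From MII to zygote 4 of 10 were called higher in labelled Btg4-/- (Cnot1, Cnot2, Cnot3 and Cnot6l, against 10.3% of genes higher, 5.38% lower and 15.7% in all). In that step 5 of 10 were called higher in wild type (Cnot1, Cnot3, Cnot6, Cnot7 and Rqcd1, against 20.5% higher, 985 of 12311 genes lower and 28.5% in all). From zygote to 2-cell 9 of 10 were called in labelled Btg4-/- (6 higher and 3 lower, against 18.3% and 28.2%, or 46.5% in all), all but Cnot3. In wild type 7 of 10 were called (4 higher and 3 lower, against 27.1% and 30.2%, or 57.4% in all). The change itself differed between genotypes for 4 of 10 subunits from GV to MII, 1 higher and 3 lower (against 42.5% of genes, 26.5% higher and 1967 of 12311 genes lower). From MII to zygote it differed for 3 of 10, 2 higher and 1 lower (against 12.2%, 4.95% higher and 7.25% lower), and from zygote to 2-cell for 5 of 10, 4 higher and 1 lower (against 48.0%, 22.2% higher and 25.9% lower). Several step calls rest on single libraries. From GV to MII, the wild-type calls of Cnot1 were lost without wild-type GV library 2 (adjusted p = 0.0612) or MII library 1 (0.0643), and that of Cnot3 without GV library 2 (0.0595). In labelled Btg4-/- the call of Cnot1 was lost without MII library 2 (0.0515), and that of Cnot11 without GV library 2 (0.127) or MII library 1 (0.146). From zygote to 2-cell in labelled Btg4-/-, the calls of Cnot2, Rqcd1 and Cnot10 were lost without zygote library 1 (0.206, 0.107 and 0.169), those of Cnot2 and Rqcd1 without 2-cell library 2 (0.102 and 0.207), and that of Cnot10 without 2-cell library 1 (0.125). The Rqcd1 call (adjusted p = 0.0457) was lost under 9 of 23 alternatives, among them without labelled Btg4-/- zygote library 2 (0.152), with the groups fitted alone (0.0991) and without labelled Btg4-/- GV library 1 or 2, wild-type GV library 2 or wild-type zygote library 1 or 2 (0.0509 to 0.0561). In the step from MII to zygote, without labelled Btg4-/- MII library 1 or 2 or zygote library 2, 2 subunits were called in labelled Btg4-/-, and without wild-type MII library 2 or zygote library 2, 3 were called in wild type. The 3 genotype differences of the MII to zygote step (Cnot6l 0.84, adjusted p = 0.0314, Rqcd1, and Cnot11 0.87, adjusted p = 0.0318) were reduced to 1 without labelled Btg4-/- zygote library 2, wild-type MII library 2 or wild-type zygote library 1 or 2.

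Where median-of-ratios scaling moved the median of all genes by over 0.1, the values were also read relative to that median. In the GV comparison the median log2 difference of all genes was -0.12 before and 0 after scaling, and Cnot3 stood 0.92 below it. In the wild-type step from MII to zygote the median was 0.22 before and 0.04 after, and relative to it Cnot1 changed by 0.74, Cnot3 by 0.76, Cnot6 by 0.58, Cnot7 by 0.32 and Rqcd1 by 0.73. Of these only Cnot3 and Rqcd1 were still called after scaling, with Cnot11 called lower (-0.71, adjusted p = 0.00715). In the labelled Btg4-/- step from GV to MII the median was 0.14 before and -0.02 after, and Cnot11, 0.42 above it, was no longer called (adjusted p = 0.501), while Cnot6 (-0.61, 0.0406) and Cnot10 (-0.89, 0.0267) were called lower. In the labelled Btg4-/- step from zygote to 2-cell the median was -0.17 before and -0.05 after, and Cnot10, 0.80 below it, was no longer called (adjusted p = 0.0512). In the genotype difference of the GV to MII step it was 0.22 before and 0.03 after, and relative to it Cnot6l stood at -3.28, Cnot7 at -1.50, Cnot3 at -1.22 and Rqcd1 at 0.95. Cnot6 was not called in that term before scaling (-0.67, adjusted p = 0.0895). It was called lower after scaling (-0.99, 0.0228) and with quantile normalization (-0.99, 0.0222).

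The makeup of the summed subunit mRNA moved with stage and genotype. The 10 subunits together had 236 and 228 FPKM in labelled Btg4-/- MII libraries, against 525 and 557 in wild type, and 329 and 320 FPKM in labelled Btg4-/- zygotes, against 657 and 706. The CCR4-type nucleases made up 14.9 and 16.7% of this sum in labelled Btg4-/- MII libraries, against 49.4 and 49.3% in wild type. The CAF1-type nucleases made up 79.4 and 81.8% in labelled Btg4-/- GV libraries, against 71.6 and 74.6% in wild type, and 21.4 and 24.6% in labelled Btg4-/- MII libraries, against 14.99 and 15.98%. Their MII level itself was lower in labelled Btg4-/-, at 50.5 and 56.0 FPKM against 78.8 and 89.0, so only their share of a smaller sum was higher. In zygotes their share was 16.3 and 14.4% in labelled Btg4-/-, against 17.2 and 17.4% in wild type. The 2 genotypes did not overlap in any of these shares. In 2-cell embryos the summed level was 595 and 628 FPKM in labelled Btg4-/-, against 596 and 572 in wild type, and the CAF1-type share was 49.8 and 46.9%, against 48.6 and 55.6%, with overlapping ranges in both. The FPKM of all symbols summed to 453813 and 441998 in these labelled libraries, against 299983 and 302000 in wild type. As a share of that total, the subunits lay below wild type in both labelled libraries.

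**Figure D4:**
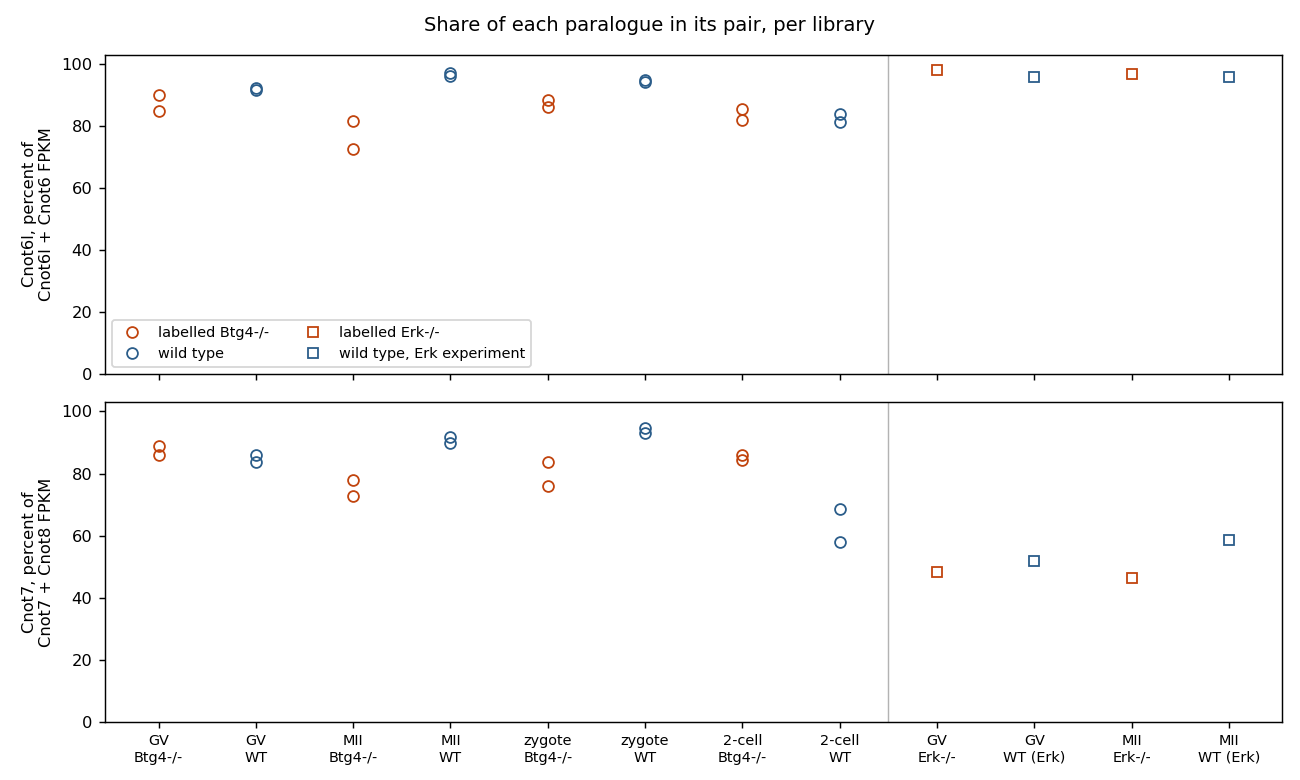
Share of Cnot6l in the FPKM of Cnot6l and Cnot6 (top) and of Cnot7 in that of Cnot7 and Cnot8 (bottom), 1 point per library, in percent, with the Btg4 experiment as circles and the Erk experiment as squares. Cnot6l holds 72.5% or more of its pair in every library, while the share of Cnot7 is 57.9% or more in every Btg4 library and lies at 46.4 to 58.7% in the Erk libraries.

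The Erk experiment differed from the Btg4 experiment in its wild-type subunit levels before any genotype is compared. Across 13979 symbols the wild-type GV library of the Erk experiment correlated with wild-type GV libraries of the Btg4 experiment at r of 0.717 to 0.720, with wild-type MII libraries at 0.745 to 0.755 and with wild-type zygotes at 0.787 to 0.788. The wild-type MII library of the Erk experiment correlated with wild-type MII libraries of the Btg4 experiment at 0.726 to 0.729 and with wild-type GV libraries at 0.608 to 0.612. These r values are across genes of single libraries and describe them only. Experiment, sequencing depth and whatever else separated the 2 sets of libraries cannot be told apart.

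Within the Erk experiment, Erk-/- was compared with wild type without replicates, so differences of log2(FPKM + 1) are given and no test. At GV Cnot6l had 157 FPKM in the Erk-/- library and 77.9 in the wild-type library, a difference of 1.003, and it was the only 1 of 10 subunits that differed at least 2-fold, where 20.5% of genes were at least 2-fold higher and 25.8% at least 2-fold lower. At MII Cnot1 had 14.3 FPKM in the Erk-/- library and 2.68 in wild type (2.06), and Rqcd1 had 5.51 and 0.484 (2.13), while Usp37, which spans Rqcd1, had 21.0 and 22.3. These 2 of 10 stand against 36.7% of genes at least 2-fold higher and 9.66% at least 2-fold lower, with a median of 0.44 over all genes. With median-of-ratios scaling 5 subunits differed at least 2-fold at MII. In Erk-/- Cnot1 (1.63) and Rqcd1 (1.89) were then higher, and Cnot6 (-1.37), Cnot6l (-1.13) and Cnot7 (-1.21) lower. With a pseudocount of 0.1 FPKM 4 differed so, Cnot1 (2.37), Rqcd1 (3.26) and Cnot10 (2.62, listed at 0 in wild type) higher and Cnot6 (-1.01) lower. The shares of all genes above belong to the unscaled log2(FPKM + 1) values only. Among the nucleases at MII, Cnot6l had 149 FPKM in Erk-/- and 226 in wild type, Cnot6 4.84 and 9.84, Cnot7 286 and 459, and Cnot8 331 and 323. The summed 11 granulosa and cumulus markers were 11.9 in the Erk-/- MII library and 22.7 in the wild-type MII library, with 7 and 8 of the 11 at 0, and their part in these differences was not tested.

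Between GV and MII, the CAF1-type nucleases were higher at MII in the Erk experiment and lower at MII in the Btg4 experiment. The median difference of MII minus GV over all genes was -0.32 in Erk-/- and -1.14 in wild type of the Erk experiment, and the values below are not adjusted for it. Cnot7 had 286 FPKM at MII and 59.4 at GV in the Erk-/- libraries (2.25), and 459 at MII and 53.4 at GV in the wild-type libraries of that experiment (3.08). Cnot8 had 331 FPKM at MII and 64.0 at GV in Erk-/- (2.35), and 323 at MII and 49.5 at GV in wild type (2.68). In the Btg4 experiment both were lower at MII than at GV in both genotypes, so neither direction holds for all libraries. Cnot1 had 14.3 FPKM at MII and 41.6 at GV in Erk-/- (-1.48), and 2.68 at MII and 34.8 at GV in wild type (-3.29). Rqcd1 had 5.51 at MII and 9.27 at GV in Erk-/- (-0.66), and 0.484 at MII and 10.1 at GV in wild type (-2.90). Cnot10 had 0.513 FPKM at MII and 19.8 at GV in Erk-/- (-3.78), and was listed at 0 at MII with 23.7 FPKM at GV in wild type. Cnot6l had 149 FPKM at MII and 157 at GV in Erk-/- (-0.08), and 226 at MII and 77.9 at GV in wild type (1.53), the same direction as in wild type of the Btg4 experiment. At least 2-fold from GV to MII, 4 of 10 subunits differed in Erk-/- (2 higher and 2 lower, against 26.3% and 36.8% of genes) and 7 of 10 in wild type (4 higher and 3 lower, against 22.7% and 52.3%). Cnot6 had 4.84 FPKM at MII and 3.25 at GV in Erk-/- (0.46), and 9.84 and 3.47 in wild type (1.28). The remaining subunits differed by less than 2-fold between the stages on the log2(FPKM + 1) scale (Cnot2 in Erk-/- just so, at -0.98, and past 2-fold with a pseudocount of 0.1 FPKM), with Cnot3 at 200 FPKM at MII and 118 at GV in Erk-/- and 171 and 135 in wild type, Cnot2 at 25.4 and 51.1 in Erk-/- and 30.7 and 57.1 in wild type, and Cnot11 at 77.7 and 70.4 in Erk-/- and 58.1 and 77.2 in wild type.

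**Figure D5:**
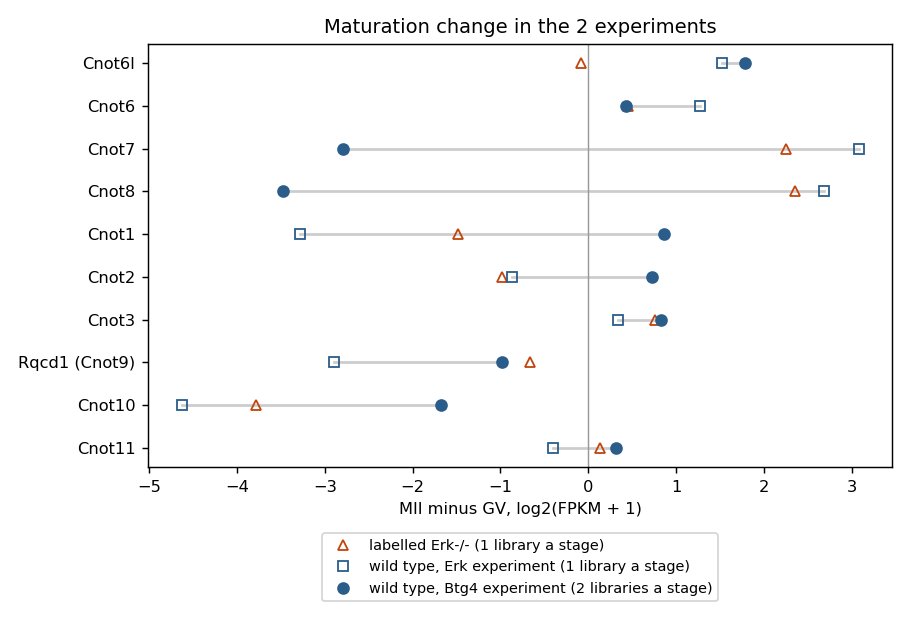
Difference of MII minus GV on the log2(FPKM + 1) scale for each subunit, in labelled Erk-/- libraries (triangles), in wild type of the Erk experiment (squares, 1 library a stage) and in wild type of the Btg4 experiment (dots, mean of 2 libraries a stage). Cnot7 lies at 2.25 and 3.08 in the Erk experiment and at -2.79 in the Btg4 experiment, Cnot6l lies right of 0 in both wild types, and the square of Cnot10 rests on a library that lists it at 0.

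Pathway lists outside the 10 subunits were read the same way between genotypes. Of 4 proteins associated with the complex, all 4 were called lower at MII, against 23.3% of all genes, with a median log2 difference of -1.53 against 0.09 over all genes. Cnot4, a ubiquitin ligase that binds CNOT1, had 14.8 and 28.3 FPKM in labelled Btg4-/-, against 78.9 and 127 in wild type (-2.23). Eif4enif1, which encodes the translational repressor 4E-T, had 22.3 and 23.9 FPKM, against 58.3 and 63.4 (-1.36), Tnks1bp1 had 2.42 and 2.10, against 8.43 and 10.9 (-1.70), and the helicase gene Ddx6 had 1.53 and 1.75, against 3.09 and 4.86 (-0.89). Their adjusted p ran up to 0.0184. The list of 24 adaptors and recruiters includes Btg4 itself, the gene that defines the groups, so its counts at every stage are not independent of the labels. Of the 24, 21 entered the test, and at MII 2 were called higher and 11 lower, against 29.1% and 23.3% of all genes (median -1.05, against 0.09). Bicc1, an RNA-binding protein that recruits the complex, had 0.408 and 0.627 FPKM in labelled Btg4-/-, against 9.22 and 9.40 in wild type (-2.77), and Nanos1, a translational repressor, had 43.8 and 40.3 FPKM, against 13.6 and 11.3 (1.68). Tnrc6b of the microRNA pathway had 0.594 and 0.684, against 4.54 and 4.55 (-1.76), and Zfp36, which binds AU-rich elements, had 0.284 and 0.778, against 4.20 and 3.84 (-1.73). For these 4 the adjusted p was at most 0.000128, and Bicc1, Tnrc6b and Zfp36 were below 10 FPKM in both genotypes.

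Of 8 genes listed as other deadenylases, an activity not measured here, 1 was called higher and 3 lower at MII, against 29.1% and 23.3% of all genes (median -0.15, against 0.09). Ccrn4l, the rhythmically expressed Nocturnin, had 6.13 and 4.998 FPKM in labelled Btg4-/-, against 86.5 and 99.9 in wild type (-3.85). Pan3, the partner of the nuclease PAN2, had 5.03 and 2.87 FPKM, against 53.7 and 60.6 (-3.59). Angel1 had 10.2 and 9.72 FPKM, against 20.9 and 23.3 (-1.07), and Parn, a poly(A)-specific ribonuclease, had 33.9 and 32.0, against 17.6 and 15.5 (0.96), with adjusted p of at most 0.00155 for these 4. Of 15 decapping and 5′ decay genes, 13 entered the test, and at MII 3 were called higher and 4 lower, against 29.1% and 23.3% of all genes (median -0.00, against 0.09). In this list the Lsm subunits of the ring that binds deadenylated 3′ ends moved both ways, with Lsm4 at 178 and 170 FPKM in labelled Btg4-/-, against 6.96 and 11.6 in wild type (4.12), and Lsm1 at 1.10 and 0.843, against 10.5 and 16.2 (-2.84). Lsm5 had 25.6 and 29.7, against 149 and 211 (-2.64), and Lsm6 had 25.6 and 27.5, against 4.996 and 5.46 (2.14), with adjusted p of at most 3.36e-06 for these 4. At GV the calls higher and lower were 0 and 0 of the 4 associated proteins, 0 and 1 of the 21 adaptors and recruiters, 0 and 2 of the 8 other deadenylases and 0 and 2 of the 13 decapping genes, where 1.45% and 6.46% of all genes were called. In zygotes they were 0 and 4, 2 and 13, 0 and 4, and 5 and 5, in the same order of lists, against 24.4% and 23.3% of all genes. The 2-cell counts were 1 higher and 14 lower of the 21 adaptors and recruiters, 9 higher and 2 lower of the 13 decapping genes, 1 higher and 4 lower of the 8 other deadenylases, and 2 higher and 0 lower of the 4 associated proteins, against 22.6% higher and 26.4% lower of all genes.

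The subunits varied differently across the 8 groups of the Btg4 experiment. Over group means on the log2(FPKM + 1) scale, Pearson r between 2 subunits was 0.836 for Cnot7 and Cnot8, 0.814 for Cnot3 and Cnot6l and 0.798 for Cnot1 and Cnot2, and -0.784 for Cnot2 and Cnot10. These are descriptions over 8 points that share stage and genotype, with no test. Among 6815 genes with a group mean of at least 10 FPKM, the most alike to Cnot6l were Dsn1 (r = 0.987), Rb1 (0.980) and Gm6793 (0.976). For Cnot7 they were Gm527 (0.990), Nt5dc1 (0.988) and Orc6 (0.984), and for Cnot8 Coq2 (0.990), Oaz1 (0.986) and Socs1 (0.986). For Cnot6 they were Ncoa6 (0.963), Msl3 (0.962) and Gm4925 (0.960). Ordered by mean, Cnot7 ran from 688 ± 29.5 FPKM in labelled Btg4-/- GV oocytes (SD, n = 2) to 39.7 ± 1.51 in labelled Btg4-/- zygotes, and its only neighbours in that order with overlapping libraries were labelled Btg4-/- MII oocytes and zygotes. For Cnot6l the order ran from 290 ± 26.3 FPKM in wild-type zygotes to 28.3 ± 3.98 in labelled Btg4-/- MII oocytes, with overlap between the genotypes at the 2-cell stage and at GV. For Cnot3 it ran from 136 ± 6.46 FPKM in wild-type zygotes to 16.01 ± 1.62 in labelled Btg4-/- MII oocytes, and the 6 groups below wild-type MII oocytes each overlapped the next.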

How the data were processed

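RNA-seq was made from 20 pools of mouse oocytes or embryos, grouped by their titles. Per the submitters' processing notes, CASAVA 1.8, TopHat and Cufflinks were used with the mm9 genome. Their other versions and the gene annotation were not given in the sources used here. The authors deposited FPKM per gene for 23813 loci with an interval around each, and loci of a symbol were summed. Read as 4 SDs wide, the intervals correspond to 20.5 to 5942 fragments per subunit and library and cover counting error only.

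Comparisons used limma 3.58.1 in R 4.3.3 on log2(FPKM + 1), a scale that understates changes of low genes. The model fitted 8 group means to 16 libraries, leaving 8 residual degrees of freedom, with an empirical Bayes trend on the variance. Genes entered with a mean of at least 1 FPKM in at least 1 group. P-values are two-sided, Benjamini-Hochberg adjusted over 12311 genes, with a threshold of 0.05 and 95% intervals. Tested on simulated data, it recovered most 4-fold but few 2-fold changes. The simulation changed few genes and raised small spreads to the median spread, so that recovery does not describe comparisons in which many genes were called. A difference that was not called is not shown to be absent. The Erk libraries were compared as differences, over genes at 1 FPKM or more in either library. A check of their labels is not reported here. Alternatives were pseudocount 0.1, no filter, a filter at 5 FPKM, median-of-ratios scaling, quantile normalization, groups compared alone, a replicate block and leaving out each library.

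Named genes were the 10 subunits, at most 4 of each pathway list with the largest called difference at MII, Btg4, and the 3 genes most like each nuclease. Members and lists were chosen with earlier results of these data known. Motifs came from 1 GENCODE M21 transcript a gene, preferring the principal and then the longest coding one.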

Additional observations from a re-analysis of the deposited data

Results flagged for a closer look

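The change from stage to stage differed between labelled Btg4-/- and wild type by the interaction term of limma for some subunits, given as labelled Btg4-/- minus wild type on the log2(FPKM + 1) scale. From GV to MII the difference was -0.996 for Cnot3, -3.06 for Cnot6l, -1.27 for Cnot7 and 1.17 for Rqcd1. The Cnot3 value no longer passed the threshold without labelled Btg4-/- GV library 1 (adjusted p = 0.105), wild-type GV library 2 (0.0833), labelled Btg4-/- MII library 2 (0.0818) or wild-type MII library 1 (0.0679). From MII to zygote it was 0.84 for Cnot6l, -1.09 for Rqcd1 and 0.87 for Cnot11. The Cnot6l and Cnot11 values of that step were each lost without any of 6 single libraries of the 8 in the step, with adjusted p of 0.0516 to 0.129, and that of Cnot6l also under quantile normalization (0.154). From zygote to 2-cell it was 2.27 for Cnot3, 2.18 for Cnot6l, 1.85 for Cnot7, -1.72 for Cnot8 and 1.81 for Cnot11, and these 5 stayed past the threshold under the alternatives run.

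Between the experiments, the unscaled wild-type difference of MII minus GV had opposite signs for Cnot1, Cnot2, Cnot7, Cnot8 and Cnot11. In the Erk experiment the difference was -3.29 for Cnot1, -0.87 for Cnot2, 3.08 for Cnot7, 2.68 for Cnot8 and -0.40 for Cnot11. In the Btg4 experiment it was 0.87 for Cnot1, 0.73 for Cnot2, -2.79 for Cnot7, -3.48 for Cnot8 and 0.32 for Cnot11, where Cnot11 did not pass the threshold (adjusted p = 0.133). The median over all genes was -1.14 in the Erk experiment and -0.02 in the Btg4 experiment. With median-of-ratios scaling the Erk values were -2.58 for Cnot1, -0.07 for Cnot2, 3.90 for Cnot7, 3.50 for Cnot8 and 0.41 for Cnot11, so the sign of Cnot11 turned and Cnot2 was near 0. These differences between experiments were not tested, since the Erk experiment has 1 library per stage.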

How the results depend on the processing

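For the 4 genotype comparisons by stage, Cnot6l, Cnot3, Cnot7, Cnot2 and Rqcd1 at MII, Cnot6l, Cnot3, Cnot7, Cnot6 and Cnot11 in zygotes, and Cnot8 and Cnot11 at the 2-cell stage kept direction and call under all 23 alternatives. The 2-cell difference of Cnot7 reversed to -0.44 under quantile normalization. The subunit count at GV was 0 under quantile normalization against 1, and that of the wild-type MII to zygote step was 3 under median-of-ratios scaling against 5. At MII in the Erk experiment it was 4 with pseudocount 0.1 and 5 with median-of-ratios scaling against 2. Those 2 were both higher in Erk-/-, while scaling put Cnot6, Cnot6l and Cnot7 past 2-fold lower. The cause was not tested. Leaving out 1 library gave 0 to 1 subunits at GV, with 0 without labelled Btg4-/- GV library 2 or wild-type GV library 1 or 2. It gave 3 to 6 in the wild-type MII to zygote step, 2 to 4 in the same step of labelled Btg4-/-, and 1 to 4 for its genotype difference. Using only the largest locus of each symbol could not change the paralogue shares, since each subunit has 1 row.

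Replicate numbers are shared between groups, but same-numbered libraries showed little shared deviation (r of -0.0148 to 0.126 over group pairs). They were not treated as pairs in the main fit, and r cannot show whether they were collected together. With a replicate block, 127 of 130 subunit results kept their side of the threshold and 3 newly passed it, the Cnot2 changes from MII to zygote in wild type and from GV to MII in labelled Btg4-/- and the Cnot7 genotype difference from MII to zygote. The counts by comparison with the block were 1, 6, 6 and 3 for genotype at GV, MII, zygote and 2-cell.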
